A study of Homo sapiens with 18 samples.

Results

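PTER, EPM2A, PLXDC2, FEZ1 and LMBR1 are 5 genes from unrelated pathways, described here across 6 groups of human mesenchymal stromal cells that carry a vector, serum response factor (SRF) or an SRF fusion. They were picked from measured values. PTER and EPM2A were taken because wild-type SRF moved them against the vector control pMSCV. PLXDC2, FEZ1 and LMBR1 were taken because a fusion was lower than pMSCV. That fusion was taken here to be SRF-FOXO1 for PLXDC2 and SRF-ICA1L for FEZ1 and LMBR1, the group with the lowest mean in each case. Other fusions may have entered the choice too. The 5 genes are 5 of 61487 gene identifiers in the count table, and all 5 are among the 18544 that passed the filter on low counts.

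The cells were MSC-hTERT, a human mesenchymal stromal line immortalised with the catalytic subunit of telomerase. Each of the 6 groups had 3 RNA-seq libraries and carried 1 construct: pMSCV (a retroviral expression vector, taken as the control), SRF (wild type), or SRF joined to a part of FOXO1, ICA1L, PDGFRB or RELA. All groups shared the same line and culture medium, and every fusion group carried SRF sequence as well as its partner. The labels number the replicates 1 to 3 but do not say whether they were separate cultures, nor whether a line was a clone or a pool, so p-values measure the spread between these libraries, which may be technical.

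PTER encodes a phosphotriesterase-related amidohydrolase that splits N-acetyltaurine into taurine and acetate. EPM2A encodes laforin, a phosphatase that binds glycogen and removes phosphate from it, and its loss causes Lafora disease, in which poorly branched glycogen builds up. PLXDC2 encodes a single-pass membrane protein with a plexin-like domain that is related to tumor endothelial marker PLXDC1 and serves as a receptor for pigment epithelium-derived factor (PEDF). FEZ1 encodes an adaptor that links cargo to the kinesin-1 motor and is best known from the growth of axons. LMBR1 encodes a membrane protein of many spans, and an intron of the gene holds the distant enhancer that drives SHH, the hedgehog ligand, in the limb bud. SRF itself binds a short palindrome called the CArG box in the promoters of cytoskeletal, muscle and immediate early genes.

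The letters of the promoters were searched for this box, because the groups differ in an SRF-based factor. All 5 genes were found in the RefSeq promoter table (GRCh38.p14; 250 bases before to 50 after each start), with 6 windows, since EPM2A has 2 starts. An exact CArG box, which reads the same on both strands, was in 0 of the 6 windows and in 454 of 35116 windows of all genes (1.29%). A match with at most 1 mismatch over the 10 positions was in 3 of the 6 windows and in 6624 of all windows (18.9%). The 3 near matches are shown in capitals with their flanks, each read on the strand of the gene. They start 29 bases before the RefSeq start in PTER (chr10:16436971-16437000), 125 bases before the second EPM2A start (chr6:145735626-145735655) and 218 bases before the LMBR1 start (chr7:156893382-156893411).
PTER: cacaggggagACTAAAAAGGccagggaagt
EPM2A: gtgatgcatcCCAAAGAAGGcgcagaacag
LMBR1: gacagcgcctCCTTAACTGGggtagcccct
These are matches of letters and not binding sites. The windows of PLXDC2, FEZ1 and the first EPM2A start held no such match, which says only that these letters are not there. The stretch upstream of the first annotated PTER exon (chr10:16436760-16436942, plus strand) is given because all 3 SRF libraries lay below every other library in PTER, and it holds no near match.
PTER upstream: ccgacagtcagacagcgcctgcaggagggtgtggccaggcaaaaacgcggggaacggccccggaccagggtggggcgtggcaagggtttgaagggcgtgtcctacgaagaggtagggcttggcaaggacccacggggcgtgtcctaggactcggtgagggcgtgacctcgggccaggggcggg

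Library totals ran from 19362319 to 29806771 counts, and levels are given as CPM, counts scaled to the same total in every library. SRF was at 57.3 to 64.4 CPM in pMSCV, 678 to 1122 in SRF and 151 to 337 in the fusion libraries. The partner gene was higher than in pMSCV in the SRF-ICA1L and SRF-RELA libraries (edgeR quasi-likelihood test, adjusted p = 9.2e-09 and 5.8e-08) but not past the threshold for PDGFRB, at 709 ± 205 against 425 ± 67.0 CPM (SD, n = 3; adjusted p = 1.00). FOXO1 was at 9.79 ± 3.99 CPM in the libraries labelled SRF-FOXO1 and 12.6 ± 4.27 in pMSCV (SD, n = 3; edgeR adjusted p = 0.727), so the counts of that gene do not show the partner and the group is named by its label. All 8 mesenchymal markers (THY1, NT5E, ENG, CD44, VIM, COL1A1, COL1A2 and PDGFRB) reached 1 CPM in every library. Of the markers of other cell types, 1 of 4 haematopoietic, 1 of 3 epithelial and 1 of 3 neuronal reached 1 CPM in any library. All 3 endothelial markers did, led by PECAM1 at 4.31 to 28.0 CPM. Summed endothelial markers were 15.1 to 28.4 CPM in SRF, 9.63 to 20.3 in pMSCV, and 6.42 to 12.8 and 7.01 to 12.7 in the libraries labelled SRF-FOXO1 and SRF-ICA1L. Summed mesenchymal markers were 16789 to 19798 CPM in pMSCV and higher in SRF-ICA1L, at 22055 to 42091, with 17690 to 29682 over the other 4 groups together. Haematopoietic sums were 0.920 to 1.94 CPM in pMSCV, 2.03 to 3.82 in SRF, 2.05 to 3.76 under the label SRF-FOXO1, 2.93 to 4.09 in SRF-ICA1L, 1.18 to 2.38 in SRF-PDGFRB and 1.82 to 3.76 in SRF-RELA. Epithelial sums were at most 0.312 CPM in pMSCV, 0.604 to 1.41 under the label SRF-FOXO1, and at most 0.521 in the other groups, with KRT5 at 0 throughout. Neuronal sums were 0.622 to 1.81 CPM over all groups. The part of these shifts in the results was not tested, and in bulk RNA fewer cells of a type and less RNA per cell cannot be told apart.

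Each gene's comparison of choice is given as a description with no test, and so is every comparison that shares a group with it. Where the libraries of groups are said not to overlap, that is a description too. The share of all genes whose libraries separate in the same way was not counted. Tests were kept to the 4 groups outside the comparison taken as the choice: a joint edgeR test over those 4 groups and the 6 pairs among them, adjusted over all 18544 genes tested. For PLXDC2, FEZ1 and LMBR1 these groups include fusions that may also have entered the choice, so their tests may not be free of it. The share of all genes called in the comparisons that did the choosing was 0.027% for SRF, 0.928% for the libraries labelled SRF-FOXO1 and 0.469% for SRF-ICA1L, each against pMSCV, and nothing is read from the members' own calls there. The weakest call inside the threshold of 0.05 had an adjusted p of 0.0483 for SRF (EPM2A itself) and 0.0477 and 0.0497 for the other two, and the first gene outside had 0.0528, 0.0519 and 0.0521. Over fits that each left out 1 of the 6 libraries compared, the log2 fold change of the choice ran from -1.39 to -1.21 for PTER, 0.74 to 0.88 for EPM2A, -1.75 to -1.33 for PLXDC2, -1.52 to -1.10 for FEZ1 and -1.19 to -0.82 for LMBR1.

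**Figure D1:**
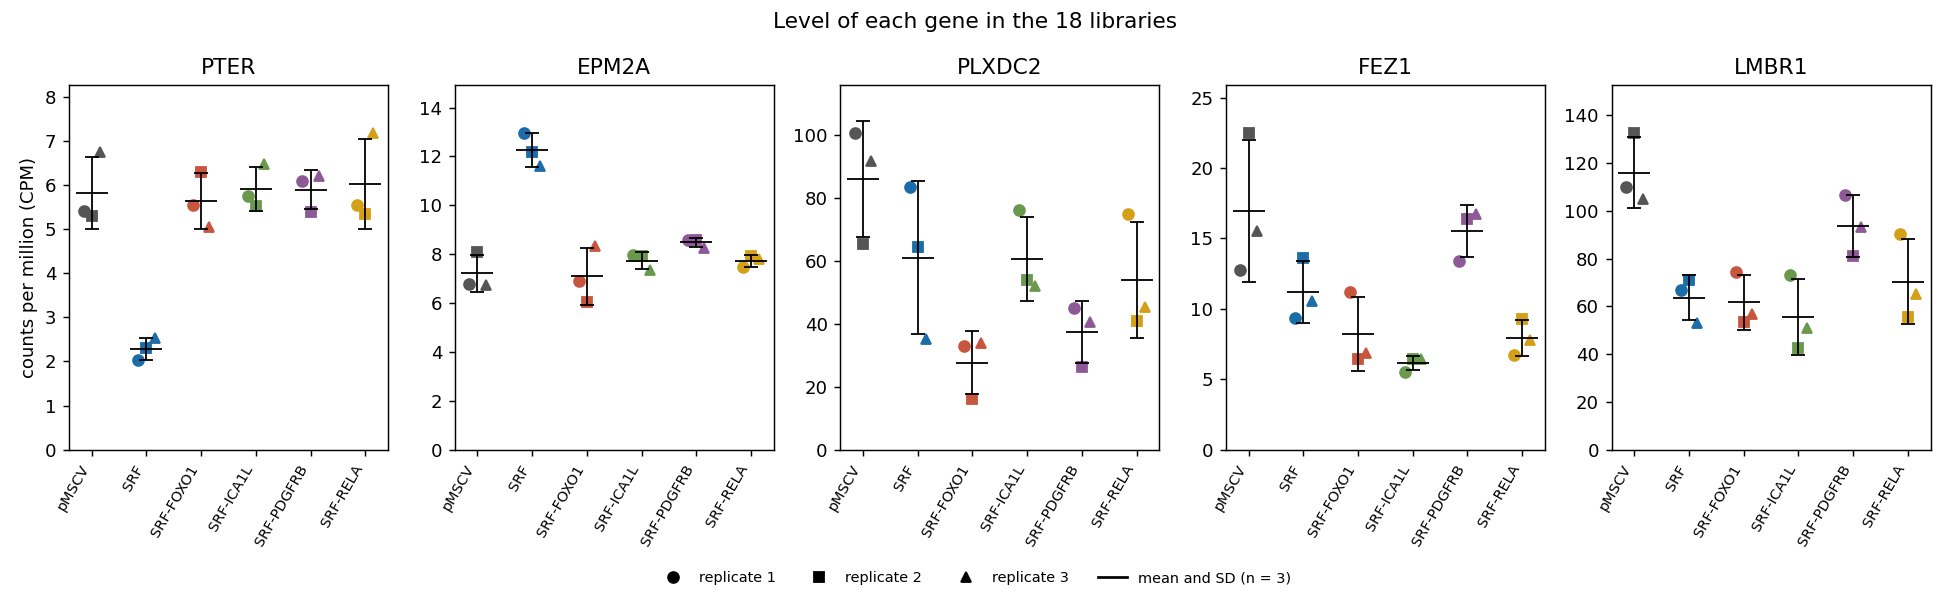
CPM of each gene (vertical axes, from 0) in the 18 libraries, by group; symbols mark the replicate number, and bars the mean and SD of 3 libraries. PTER is low and EPM2A high in the SRF libraries alone, whereas PLXDC2, FEZ1 and LMBR1 spread over several groups.

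PTER (ENSG00000165983, chr10:16436943-16513745, plus strand, GRCh38) was at well under its vector level with wild-type SRF and near it with each fusion. It was at 5.42, 5.29 and 6.75 CPM in pMSCV replicates 1, 2 and 3. In SRF it was at 2.04, 2.30 and 2.53 CPM, from 55, 60 and 73 counts. The libraries labelled SRF-FOXO1 had 5.54, 6.30 and 5.04 CPM. All 3 SRF libraries lay below every other library, while pMSCV and the fusions overlapped. PTER was at 5.74, 5.52 and 6.47 CPM in SRF-ICA1L. SRF-PDGFRB had 6.09, 5.39 and 6.20 CPM, and SRF-RELA had 5.55, 5.33 and 7.19. The mean in SRF was 2.29 ± 0.247 CPM (SD, n = 3), 39.4% of the pMSCV mean of 5.82 ± 0.811, and the fusion means were 96.7% to 104% of it. The comparison that chose it had a log2 fold change of -1.31 (SE 0.17), and the ratio of same-numbered libraries was 0.377, 0.434 and 0.375. Against SRF, the fusions were higher by log2 fold changes of 1.35 for the label SRF-FOXO1, 1.44 for SRF-ICA1L, 1.33 for SRF-PDGFRB and 1.41 for SRF-RELA (SE 0.17 each), values that reuse the SRF libraries of the choice.

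Among the 4 fusions, no difference in PTER passed the test. The joint edgeR test gave an adjusted p of 0.972 (unadjusted 0.872), beside 0.733% of all genes called across these 4 groups. The 6 pairs had log2 fold changes from -0.12 to 0.10, and their 95% intervals reached from -0.46 to 0.44, so they allow differences of up to 1.38-fold. In order of mean level, SRF-RELA, SRF-ICA1L, SRF-PDGFRB, pMSCV and SRF-FOXO1 each overlapped with the next, and a gap came only before SRF.

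EPM2A (ENSG00000112425, chr6:145382535-145736023, minus strand) ran the other way. It was at 6.80, 8.08 and 6.75 CPM in pMSCV and at 13.0, 12.2 and 11.6 CPM in SRF. The lowest SRF library was above the highest library of any other group. The libraries labelled SRF-FOXO1 had 6.91, 6.03 and 8.33 CPM, and SRF-ICA1L had 7.96, 7.92 and 7.35. SRF-PDGFRB was at 8.60, 8.58 and 8.26 CPM, and SRF-RELA at 7.46, 7.92 and 7.81. These fusion groups lay near the vector, with means from 98.3% to 118% of it, against 170.0% for SRF. The comparison of choice had a log2 fold change of 0.80 (SE 0.13), and against SRF the fusions were at -0.57 (SRF-PDGFRB), -0.58 (SRF-ICA1L), -0.64 (SRF-RELA) and -0.75 (label SRF-FOXO1), again with the SRF libraries of the choice.

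Across the 4 fusions EPM2A gave an adjusted p of 0.859 in the joint edgeR test (unadjusted 0.504). All SRF-PDGFRB libraries were above all SRF-ICA1L and SRF-RELA libraries in CPM, but the pairs gave log2 fold changes of 0.02 (95% interval -0.26 to 0.29) and, for SRF-RELA against SRF-PDGFRB, -0.07 (-0.35 to 0.20). The 6 pairs reached at most 0.18, with intervals from -0.35 to 0.46.

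In PTER and EPM2A, both picked on SRF against pMSCV, the SRF libraries lay outside the range of the other 5 groups. The share of all genes that do so was not counted, and the gap from pMSCV was part of the choice. Over the 18 libraries their log2 CPM had a Pearson r of -0.90, and -0.68 after each group's mean was removed. The points share library and depth, and the SRF libraries chose both genes. Gene by gene, the highest r with PTER were those of SLC25A22 (0.90), a mitochondrial glutamate carrier, FBXO45 (0.85), a substrate receptor of a ubiquitin ligase, and KPNA1 (0.84), an importin, among 12756 genes ranked. SLC25A22 was at 23.7 ± 2.23 CPM in SRF and 34.3 ± 1.05 in pMSCV (SD, n = 3), and its fusion means were 32.8 to 35.9. Its likeness to PTER follows from the pick by r over these same libraries. With EPM2A the highest were SRF (0.80), OS9 (0.78), which takes part in the disposal of misfolded proteins from the endoplasmic reticulum, and ACOT2 (0.77), a mitochondrial thioesterase. The r with SRF is in large part set by the choice, since EPM2A was picked as high in the SRF libraries, where SRF averaged 945 CPM. In the fusions SRF averaged 182 to 326 CPM against 61.0 in pMSCV, while the EPM2A means were 98.3% to 118% of the vector. The lowest r with EPM2A was -0.85 for LMBRD1, which is a lysosomal relative of LMBR1 needed for vitamin B12 export.

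PLXDC2 (ENSG00000120594, chr10:19816239-20289856, plus strand) was lower than pMSCV in every construct when libraries of the same number were compared, but the replicates were far apart. The ratio for SRF replicate 2 was 0.984, and all these ratios use the pMSCV libraries of the choice. PLXDC2 was at 101, 65.4 and 91.8 CPM in pMSCV and at 83.4, 64.3 and 35.1 in SRF. The libraries labelled SRF-FOXO1 had 32.9, 16.1 and 33.9 CPM. SRF-ICA1L had 76.0, 53.9 and 52.1. The libraries labelled SRF-FOXO1 were all below SRF, SRF-ICA1L, SRF-RELA and pMSCV, with a narrow gap to SRF (33.9 against 35.1 CPM). PLXDC2 was at 45.0, 26.2 and 40.5 CPM in SRF-PDGFRB, which overlapped with the label SRF-FOXO1. It was at 74.9, 41.0 and 45.4 CPM in SRF-RELA. Replicate 1 was the highest library in 5 of the 6 groups and replicate 2 the lowest in 4. In order of mean level (pMSCV, SRF, SRF-ICA1L, SRF-RELA, SRF-PDGFRB, SRF-FOXO1) every group overlapped with the next.

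The comparison that chose PLXDC2 had a log2 fold change of -1.58 (SE 0.34). The values against the same pMSCV libraries were -0.46 (SE 0.33) for SRF, -0.39 (SE 0.33) for SRF-ICA1L, -1.22 (SE 0.34) for SRF-PDGFRB and -0.63 (SE 0.33) for SRF-RELA. The joint edgeR test across SRF, SRF-ICA1L, SRF-PDGFRB and SRF-RELA gave an adjusted p of 0.586 (unadjusted 0.117), with 0.987% of all genes called. SRF-PDGFRB was at -0.82 against SRF-ICA1L (95% interval -1.54 to -0.10; unadjusted p = 0.0275, adjusted p = 0.348 by edgeR). It was at -0.75 against SRF (-1.47 to -0.04; unadjusted p = 0.0406, adjusted p = 0.393 by edgeR). Neither passed the threshold.

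The genes most like PLXDC2 over the 18 libraries were SALL2 (r = 0.89), a zinc finger transcription factor, PDGFRA (0.88), the platelet-derived growth factor receptor of stromal cells, and PTGIS (0.87), prostacyclin synthase. PDGFRA was at 36.6 ± 12.9 CPM in the libraries labelled SRF-FOXO1, 44.4 ± 15.9 in SRF-PDGFRB and 89.3 ± 21.2 in pMSCV (SD, n = 3), the same 2 lowest groups as PLXDC2. It was picked for its r with PLXDC2 over these same libraries, so the shared groups follow from that pick.

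LMBR1 (ENSG00000105983, chr7:156668946-156893230, minus strand) was highest in pMSCV and next in SRF-PDGFRB, with the other 4 constructs lower and overlapping. It was at 110.1, 133 and 105 CPM in pMSCV, and at 66.7, 71.0 and 53.1 in SRF. The libraries labelled SRF-FOXO1 had 74.5, 53.4 and 57.0 CPM, and SRF-ICA1L had 73.1, 42.7 and 50.9. All libraries of these 3 constructs were below all pMSCV libraries. LMBR1 was at 107, 80.9 and 93.4 CPM in SRF-PDGFRB, of which 1 library fell within the pMSCV range. In SRF-RELA it was at 90.2, 55.6 and 65.2 CPM, also all below the pMSCV libraries. The comparison of choice, SRF-ICA1L against pMSCV, had a log2 fold change of -0.96 (SE 0.20). The same pMSCV libraries gave -0.83 for SRF, -0.84 for the label SRF-FOXO1, -0.67 for SRF-RELA and -0.31 for SRF-PDGFRB (SE 0.20 each).

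In the 4 groups outside the comparison taken as its choice, the joint edgeR test of LMBR1 gave an adjusted p of 0.353 (unadjusted 0.0468). Of all genes 1.32% were called there. Fusions among these groups may also have entered the choice, so the low unadjusted p-values may not be free of it. SRF-PDGFRB was at 0.52 against SRF (95% interval 0.11 to 0.94; unadjusted p = 0.0171, adjusted p = 0.319 by edgeR) and at 0.53 against the label SRF-FOXO1 (0.11 to 0.94; unadjusted p = 0.0163, adjusted p = 0.236 by edgeR). Neither pair passed. All 3 SRF-PDGFRB libraries were above all libraries of those 2 groups, and the share of all genes that separate so was not counted. NNT-AS1 (r = 0.87), an antisense transcript, and the transcription factors TSHZ1 (0.87) and SIX4 (0.87) had the patterns most like that of LMBR1.

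FEZ1 (ENSG00000149557, chr11:125442881-125592568, minus strand) also kept its highest construct level in SRF-PDGFRB. Of the 5 joint tests, each over the groups outside the comparison taken as the choice, that of FEZ1 had the lowest p. FEZ1 was at 12.8, 22.5 and 15.5 CPM in pMSCV and at 9.38, 13.6 and 10.6 in SRF. The libraries labelled SRF-FOXO1 had 11.2, 6.46 and 6.89 CPM. SRF-ICA1L, the group that chose the gene, had 5.54, 6.46 and 6.43. The SRF-ICA1L libraries lay close together and below every SRF and SRF-RELA library, and the label SRF-FOXO1 had 1 library in the range of SRF. The gap between SRF-ICA1L and SRF-RELA was narrow, at 6.46 against 6.71 CPM. SRF-RELA against SRF-ICA1L had a log2 fold change of 0.31 (SE 0.23). SRF-PDGFRB was at 13.4, 16.4 and 16.7 CPM and SRF-RELA at 6.71, 9.26 and 7.77, with no overlap. The comparison of choice had a log2 fold change of -1.35 (SE 0.23). It was -1.10 without pMSCV replicate 2, the highest FEZ1 library, and -1.52 without pMSCV replicate 1. The same pMSCV libraries gave -0.57 for SRF, -0.97 for the label SRF-FOXO1, -1.03 for SRF-RELA and -0.13 for SRF-PDGFRB (SE 0.22 to 0.23).

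The joint test of FEZ1 over SRF, SRF-RELA, SRF-PDGFRB and the label SRF-FOXO1 gave an unadjusted p of 0.00275 and an adjusted p of 0.112 (edgeR), and so did not pass. It passed in the fit without replicate 1 of the label SRF-FOXO1 (adjusted p = 0.0271). SRF-PDGFRB against the label SRF-FOXO1 had a log2 fold change of 0.85 (SE 0.23, 95% interval 0.37 to 1.32; edgeR adjusted p = 0.101), where 0.717% of all genes were called. With the replicate number as a block it was 0.82 (edgeR adjusted p = 0.0288), where 4.35% were called. SRF-RELA against SRF-PDGFRB had -0.91 (SE 0.23, 95% interval -1.39 to -0.43; edgeR adjusted p = 0.214), where 0.162% were called, and -0.91 with the block (edgeR adjusted p = 0.0420), where 0.847% were called. DESeq2 called both pairs too (adjusted p = 0.0205 and 0.0281), with 2.56% and 0.653% of all genes called. In each of the 3 same-numbered pairs the SRF-PDGFRB library had more FEZ1 than the SRF-RELA library and the library labelled SRF-FOXO1, so the call, but not its direction, depended on the test.

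The FEZ1 span overlaps with EI24 and STT3A on the opposite strand, with 2172 to 6837 counts a library against 140 to 524 for FEZ1, and the strand setting of the counting is not given in the sources used here. In GENCODE release 29 the FEZ1 exons share 0 bases with exons of either gene. In the 2 pairs above, EI24 had log2 fold changes of -0.20 and -0.01 and STT3A of -0.26 and 0.10, neither called by edgeR. The patterns most like FEZ1 were DCLRE1C (r = 0.82), a nuclease of DNA end joining, YIPF4 (0.82), a Golgi membrane protein, and POGLUT1 (0.81), a glucosyltransferase of Notch. FEZ1 and LMBR1 had an r of 0.67 over the 18 libraries and -0.03 after group means were removed, while PLXDC2 and LMBR1 had 0.39 and 0.61.

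**Figure D2:**
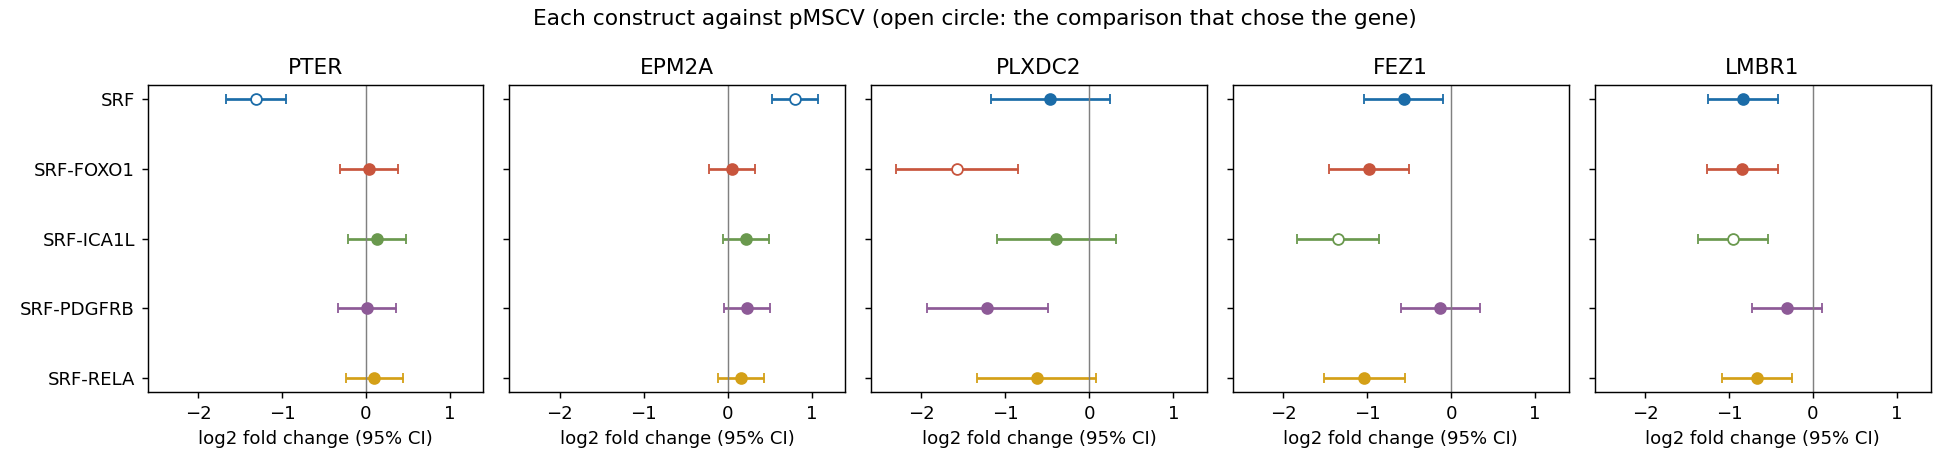
Log2 fold change of each construct against pMSCV (horizontal axes) with its 95% interval, from edgeR; open circles mark the comparison that chose the gene. The intervals of PTER and EPM2A leave 0 with SRF alone, and those of PLXDC2 with SRF-FOXO1 and SRF-PDGFRB. Those of FEZ1 and LMBR1 do so with every construct but SRF-PDGFRB. All these comparisons use the pMSCV libraries of the choice and are not adjusted over genes, so the intervals are a description and not a test.

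Over the 5 genes, 30 pairs of groups could be tested without using the comparison taken as the choice. By edgeR 0 of 30 passed, 6 had an unadjusted p under 0.05, and all 6 had SRF-PDGFRB on one side, as 15 of the 30 pairs did. Over the same comparisons 9.40% of all genes had such a p on average, and 9.98% over the 15 with SRF-PDGFRB; pairs of 1 gene share libraries and are not independent. With the replicate block 10 pairs had such a p, 9 of them with SRF-PDGFRB. The share of all genes with such a p in the block fit is not given here, so the rise is not read as a trait of these 5 genes. DESeq2 called 2 and the fit with the replicate block called 2, all of them FEZ1. The share of all genes called by edgeR in the other pairs was 0.027% for SRF-ICA1L against SRF-FOXO1, 0.00539% for SRF-RELA against SRF-FOXO1, 0.82% for SRF-PDGFRB against SRF-ICA1L and 0.0108% for SRF-RELA against SRF-ICA1L. Against SRF it was 1.36% for SRF-FOXO1, 0.782% for SRF-ICA1L, 0.146% for SRF-PDGFRB and 0.388% for SRF-RELA. In PLXDC2 the low-p pairs had SRF-PDGFRB lower, and in FEZ1 and LMBR1 they had it higher.

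**Figure D3:**
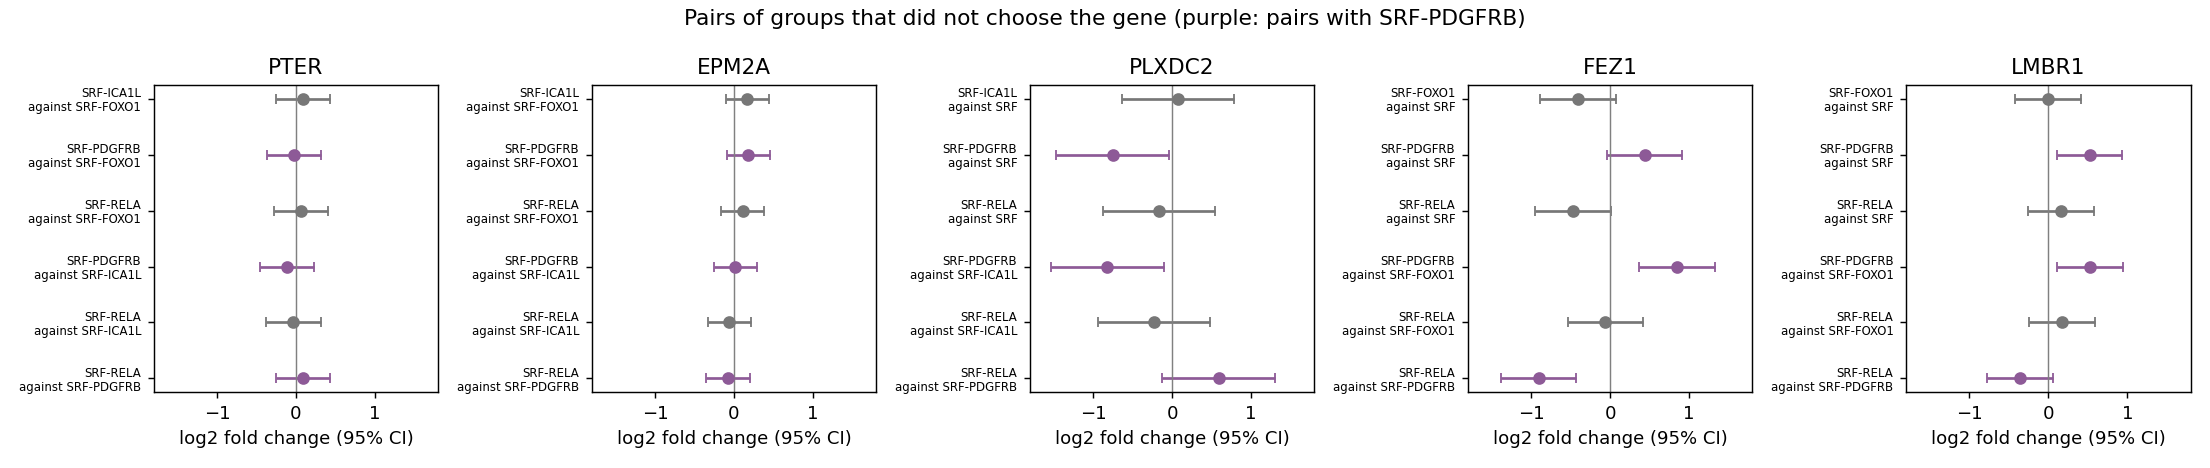
Log2 fold change with 95% interval (horizontal axes), from edgeR, for the 6 pairs of groups per gene outside the comparison taken as its choice. Purple marks pairs with SRF-PDGFRB. For PLXDC2, FEZ1 and LMBR1 some of these groups may also have entered the choice. The PTER and EPM2A pairs lie within 0.18 of 0 on the log2 scale, and the pairs farthest from 0 are those of FEZ1 at 0.85 and -0.91.

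Lists of genes linked to each of the 5 were then followed, each construct against pMSCV, to see whether listed genes moved with the gene. Not all listed genes are partners. The hedgehog genes are linked to LMBR1 only through the SHH enhancer in its intron. Most genes listed beside PLXDC2 share a tumor endothelial marker label and are not known here to work with it. Of 87 list genes 79 were tested, which makes 395 tests over 5 constructs. By edgeR 0 were called, 31 (7.85%) had an unadjusted p under 0.05 where 7.44% of all genes did on average, DESeq2 called 5, and 16 were called with the replicate block. The share of all genes called by edgeR was 0.0324% for SRF-PDGFRB and 0.183% for SRF-RELA, beside those given above for the others. With the block it was 0.243% for SRF, 7.03% for the label SRF-FOXO1, 4.66% for SRF-ICA1L, 0.178% for SRF-PDGFRB and 0.971% for SRF-RELA. With DESeq2 it was 0.194%, 2.89%, 1.76%, 0.108% and 0.701% in the same order.

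Of the taurine genes beside PTER, 11 of 13 were tested, and in SRF their median log2 fold change was -0.09 against 0.01 over all genes. CSAD, which makes hypotaurine, was at 19.1 ± 2.73 CPM in SRF and 12.2 ± 1.27 in pMSCV (SD, n = 3), a difference of 0.68 on the log2 scale (SE 0.17; adjusted p = 0.468 by edgeR). ADO, an enzyme that oxidises cysteamine, was at -0.19 and the transporter SLC6A13 at -0.997, both with an edgeR adjusted p of 0.915. In the libraries labelled SRF-FOXO1, CTH (0.62) and GOT1 (0.46), enzymes of cysteine metabolism, were higher with the block (edgeR adjusted p = 0.0286 and 0.0417).

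Of the glycogen genes beside EPM2A, 25 of 27 were tested, with a median of 0.03 in SRF. NHLRC1, which encodes the ubiquitin ligase malin that works with laforin, reached at most 0.362 CPM and was not tested. GBE1, the branching enzyme, was at 116 ± 8.89 CPM in SRF and 88.2 ± 11.3 in pMSCV (SD, n = 3), a difference of 0.43 on the log2 scale (SE 0.13; adjusted p = 0.732 by edgeR). PPP1R3B, a glycogen-targeting subunit of protein phosphatase 1, was at 0.43, and PHKG1, a catalytic subunit of phosphorylase kinase, at 0.72. With the block, the phosphorylase PYGB was higher in the libraries labelled SRF-FOXO1 (0.92, edgeR adjusted p = 0.0154; DESeq2 called it too), and GAA, the lysosomal glucosidase, was lower there (-0.38, adjusted p = 0.0314). PYGL (0.41) and PGM1 (0.35) were higher in SRF-ICA1L with the block (edgeR adjusted p = 0.0494 and 0.0386).

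Of the tumor endothelial marker and PEDF genes beside PLXDC2, all 10 were tested, and in the libraries labelled SRF-FOXO1 their median was -0.11 against 0.01 over all genes. CD248, a stromal membrane glycoprotein also called endosialin, was at 66.8 ± 21.3 CPM there and 41.3 ± 11.8 in pMSCV (SD, n = 3), a difference of 0.79 on the log2 scale (SE 0.30; adjusted p = 0.226 by edgeR), so it lay on the other side of the vector from PLXDC2. With the block CD248 was higher in SRF-ICA1L (1.09), SRF (0.82), SRF-RELA (0.77) and the label SRF-FOXO1 (0.76), with edgeR adjusted p of 0.000438, 0.0229, 0.0132 and 0.00512, and DESeq2 called it in SRF-ICA1L. In SRF-PDGFRB it was at -0.28 (SE 0.30). NID2, a basement membrane protein, was higher in SRF-ICA1L with the block (0.95, edgeR adjusted p = 0.0408). SERPINF1, which encodes PEDF, was at -0.50, ANTXR1 at -0.32 and PNPLA2, a lipase that binds PEDF, at 0.11 in the libraries labelled SRF-FOXO1, all without a call.

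Of the kinesin-1 genes and partners beside FEZ1, 17 of 20 were tested, with a median of 0.01 in SRF-ICA1L against -0.01 over all genes. UVRAG, an autophagy factor, was at 0.35 (SE 0.13; edgeR adjusted p = 0.317) and the kinesin light chain KLC1 at 0.18 (SE 0.09; adjusted p = 0.490). DISC1, a scaffold that binds FEZ1, was at 14.7 ± 1.24 CPM in the libraries labelled SRF-FOXO1 and 21.6 ± 3.20 in pMSCV (SD, n = 3), a difference of -0.48 on the log2 scale (SE 0.12; adjusted p = 0.0695 by edgeR). It was called lower with the block (adjusted p = 0.0210) and by DESeq2 (adjusted p = 0.0106).

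Of the LMBR1 relatives and hedgehog genes, 16 of 17 were tested, with a median of -0.05 in SRF-ICA1L, and SHH itself was too low to test. HHAT, which attaches palmitate to hedgehog ligands, was at 0.81 (SE 0.33; edgeR adjusted p = 0.377; called with the block, adjusted p = 0.0201). GLI1, a target and effector of the pathway, was at 0.84, GLI3, its main repressor, at -0.55 and DISP1, which releases the ligand, at -0.26 in SRF-ICA1L. With the block GLI3 was lower in SRF-ICA1L (-0.56) and the label SRF-FOXO1 (-0.67), and DISP1 in the latter (-0.41), with edgeR adjusted p of 0.0382, 0.0122 and 0.0337. In SRF, DESeq2 called lower LMBRD1 (-0.54, adjusted p = 0.00469) and HHIP, a decoy receptor of the ligand (-1.30, adjusted p = 0.0308), which edgeR gave adjusted p of 0.198 and 0.469.

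**Figure D4:**
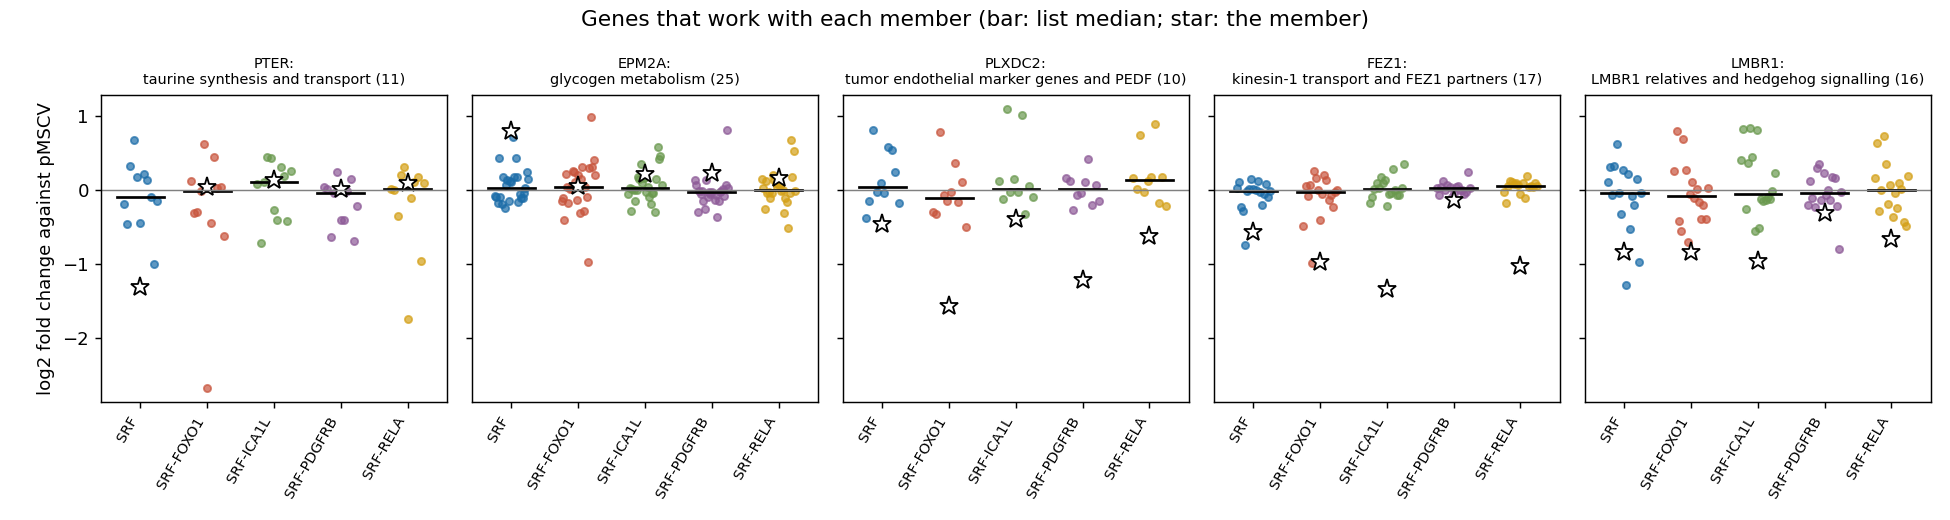
Log2 fold change against pMSCV (vertical axis) of the tested genes of each list, by construct; bars mark the list medians and stars the gene the list was built around. The list medians stay between -0.11 and 0.14, and single list genes spread more widely, such as HHIP at -1.29 in SRF; the star in the comparison that chose each gene was fixed by the choice.

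The nearest tested protein-coding gene outside the span of the gene was followed on each side, in the comparison that chose the gene. Genes that overlap the span, such as EI24 and STT3A for FEZ1, were left out. The distances ran from 9492 bases (PKNOX2) to 1202802 (MIR1915HG), with 887461 for RBM33, 576423 for MINDY3 and 529501 for UTRN, so some of these genes are far away. By edgeR 0 of these 10 neighbours were called, and 2 had an unadjusted p under 0.05, in comparisons where 5.38% to 15.1% of all genes did. Beside PTER, MINDY3 was at 0.13 and RSU1 at 0.01, and beside EPM2A, UTRN was at -0.15 and FBXO30 at -0.08. Beside PLXDC2, MALRD1 was at 0.18 and MIR1915HG at 1.62 (SE 0.58; edgeR adjusted p = 0.209). PKNOX2, next to FEZ1, was at 1.48 (SE 0.71; adjusted p = 0.474) and CHEK1, on its other side, at -0.0024. RBM33 was at -0.09 and NOM1 at -0.36 (SE 0.13; adjusted p = 0.282) beside LMBR1.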

How the data were processed

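RNA of 18 MSC-hTERT libraries (6 groups of 3) was prepared with the TruSeq Stranded mRNA kit, per the labels' protocols. The deposited table holds raw gene counts, which the authors made on GRCh38 with FastQC 0.11.8, Trimmomatic 0.39, HISAT2 and featureCounts of Subread 2.0.3, per the submitters' processing notes; the annotation release and strand setting are not given in the sources used here. Of 61487 identifiers, 61369 had a symbol in the table of gene names and 105 more in GENCODE release 29. Groups came from the sample labels.

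Counts were tested with edgeR 4.0.16 in R 4.3.3 (TMM scaling, filterByExpr with a minimum count of 10, robust quasi-likelihood fit over all 18 libraries with 12 residual degrees of freedom, two-sided, Benjamini-Hochberg over 18544 genes, threshold 0.05). The script was tested on simulated data. The members and lists were chosen with earlier results of these data known. Genes named beside them are SRF and the construct partners, the 3 most correlated genes (log2 CPM of at least 1 on average), the nearest tested protein-coding gene outside the span on each side, and, per list, called genes and up to 4 with the lowest p in the comparison of choice. Genes called only with the block or DESeq2 1.42.0, and opposite-strand genes of FEZ1, were added after their values were seen. Same-numbered libraries deviated together from their group means (median r 0.38 over 45 pairs, 44 of them above 0.1, against -0.18 over 90 differently numbered pairs; the exception was replicate 1 of SRF and SRF-FOXO1), so calls that change with the replicate number as a block are given with it. Depth limits the least abundant gene, PTER, to 55 to 195 counts a library.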

Additional observations from a re-analysis of the deposited data

Results flagged for a closer look

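FEZ1 differed between constructs in 2 pairs outside the comparison taken as its choice, in the edgeR fit that blocks on the replicate number. In that fit FEZ1 had log2 fold changes against pMSCV of -0.93 in the libraries labelled SRF-FOXO1 and -1.02 in SRF-RELA. Both fusions were thus also low against pMSCV, and these pairs may not be free of the choice. SRF-PDGFRB was higher than the libraries labelled SRF-FOXO1 by a log2 fold change of 0.82 (adjusted p = 0.0288), and SRF-RELA was at -0.91 against SRF-PDGFRB (adjusted p = 0.0420). In edgeR without the block, neither passed (adjusted p = 0.101 and 0.214), while DESeq2 without a block called both (adjusted p = 0.0205 and 0.0281).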

How the results depend on the processing

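The joint tests of PTER, EPM2A, PLXDC2 and LMBR1 stayed short of the threshold under every alternative run (lowest edgeR or DESeq2 adjusted p of 0.806, 0.709, 0.138 and 0.0688). That of FEZ1 (edgeR adjusted p = 0.112) passed with the DESeq2 test (0.00966), with no count filter (0.0378) and with the replicate block (0.0242). Over the same 4 groups the joint edgeR test called 6.82% of all genes with the block and 1.32% without it. The shares for DESeq2 and for no count filter are not given here. When 1 library was left out, the FEZ1 adjusted p ranged from 0.0271 to 0.284, and of these fits only that without SRF-FOXO1 replicate 1 passed. The count of 0 among the 30 pairs became 2 with the DESeq2 test, 2 with the replicate block, and 0 to 1 when 1 library was left out (1 without SRF-FOXO1 replicate 1). The count of 0 among list genes became 5 with the DESeq2 test, 16 with the replicate block and 0 to 2 when 1 library was left out (2 without SRF replicate 3, 1 without SRF-FOXO1 replicate 1 and 1 without SRF-RELA replicate 2). The cause was not tested. Scaling by total count moved the median of all genes in SRF-ICA1L against pMSCV from -0.01 to -0.12 and FEZ1 there from -1.35 to -1.46. The alternatives for the comparisons of choice were added after the data were seen and describe the choice, not a test. All 5 genes were picked in these comparisons, so meeting the threshold was in large part fixed by the choice. With the DESeq2 test and with the block 5 of them met it. Under either other scaling 4 did (not EPM2A), and with no count filter 3 did (not EPM2A or PLXDC2). With at least 10 counts in every library 3 did (not PLXDC2 or LMBR1). When only the 2 groups compared were fitted 0 did, where fewer libraries gave the spread. With 1 library left out, EPM2A met it in 0 of 6 fits, PLXDC2 and LMBR1 in 1 each, and PTER and FEZ1 in 5 each. Shares of all genes called under the other scalings and filters are not given here. Where a group was left with 2 libraries, the pooled spread of all groups was used.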
